A study of Mus musculus with 6 samples.

Results

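Death receptors are members of the TNF receptor superfamily that pass a signal for cell death through adaptor proteins, and the transcripts of 10 such genes were followed in splenic monocytes of mice with and without the interleukin-4 receptor. The genes were chosen by name and not by a cut on their values, though earlier results of these data were known. They are the receptors Fas, Tnfrsf1a, Tnfrsf1b and Tnfrsf10b, the ligand Tnfsf10, the adaptors and kinases Fadd, Tradd, Ripk1 and Ripk3, and the inhibitor Cflar. They are 10 of the 55421 genes in the count files, and all 10 had enough counts to be tested. Both genotypes were C57BL/6 mice. The IL-4Rα-/- mice lacked the IL-4 receptor alpha chain in all cells of the body, so that an effect on monocytes and an effect on the cells around them cannot be told apart, and the IL-4Rα+/+ mice carried the intact gene. There were 3 mice per genotype, untreated, with 1 library of splenic monocytes each. Age and sex were not stated in the labels, and the study's methods give age only as a range of weeks for all of its animals. The question was how loss of IL-4Rα at steady state alters the RNA of these cells.

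Ligands such as FASL, TNF and TRAIL bring their receptors together at the cell surface. FAS and the TRAIL receptor then bind the adaptor FADD directly, and FADD recruits caspase-8, the protease that starts apoptosis. TNF receptor 1 first binds TRADD and the kinase RIPK1 in a complex that activates NF-κB and keeps the cell alive, and a later complex with FADD and caspase-8 can kill it. The product of Cflar, cFLIP, resembles caspase-8 without being an active protease and holds it in check. Where caspase-8 is blocked, RIPK1 and RIPK3 assemble and RIPK3 phosphorylates MLKL, which breaks the plasma membrane, a form of death called necroptosis. TNF receptor 2 has no death domain and signals through TRAF proteins, and it is abundant on myeloid cells.

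IL-4Rα signals through the transcription factor STAT6, so the 250 bases upstream of the start sites were read from RefSeq (GRCm38.p6) for sites of the STAT type. Sequences were at hand for 8 of the 10 genes in 9 windows, with 2 start sites for Ripk1 and none for Tnfrsf10b and Tradd. The letters TTCNNNNGAA, the spacing STAT6 prefers, TTCNNNGAA, the spacing of other STAT proteins, and GAAANNGAAA, a core of interferon response elements, were searched on both strands. The first 2 motifs are their own reverse complements, and no matches overlap in the windows printed here. Windows of 4 genes are shown, those of the 2 genes with the lowest p-values below, Cflar and Tnfrsf1b, and those that hold TTCNNNNGAA, Fadd and the second start of Ripk1. They run 5′ to 3′ towards the gene, and capitals mark every match.
Cflar, plus strand, chr1:58711241-58711490: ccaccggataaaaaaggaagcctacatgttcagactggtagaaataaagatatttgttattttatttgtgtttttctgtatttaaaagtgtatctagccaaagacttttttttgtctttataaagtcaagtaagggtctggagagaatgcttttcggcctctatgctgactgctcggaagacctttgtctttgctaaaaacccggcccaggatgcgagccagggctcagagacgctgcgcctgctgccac
Tnfrsf1b, minus strand, chr4:145246871-145247120: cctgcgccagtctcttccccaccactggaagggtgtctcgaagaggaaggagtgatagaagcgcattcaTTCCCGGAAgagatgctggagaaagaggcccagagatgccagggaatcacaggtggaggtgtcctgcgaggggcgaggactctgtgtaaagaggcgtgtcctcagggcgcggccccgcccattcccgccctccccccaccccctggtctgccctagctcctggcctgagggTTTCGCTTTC
Fadd, minus strand, chr7:144582442-144582691: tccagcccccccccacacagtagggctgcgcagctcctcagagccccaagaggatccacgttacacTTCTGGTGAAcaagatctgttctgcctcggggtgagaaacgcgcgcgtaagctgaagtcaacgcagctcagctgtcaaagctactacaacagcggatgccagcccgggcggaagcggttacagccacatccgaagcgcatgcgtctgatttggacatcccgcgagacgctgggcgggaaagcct
Ripk1, plus strand, second start, chr13:34002624-34002873: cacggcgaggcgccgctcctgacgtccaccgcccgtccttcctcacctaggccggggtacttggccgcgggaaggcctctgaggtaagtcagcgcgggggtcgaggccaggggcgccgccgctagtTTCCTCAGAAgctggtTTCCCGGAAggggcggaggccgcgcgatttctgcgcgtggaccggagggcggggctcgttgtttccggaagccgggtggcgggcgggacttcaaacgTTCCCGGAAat
TTCNNNNGAA lay in windows of 2 genes, at -184 of Fadd and -124 of the second start of Ripk1, counted from the start site to the first base of the match. Of all 32841 RefSeq promoter windows of mouse genes cut to the same length, 5.85% hold it. TTCNNNGAA lay in windows of 4 genes, at -181 of Tnfrsf1b, -244 of Tnfrsf1a, -93 of Fas and both -108 and -11 of the second start of Ripk1, against 7.02% of all windows. GAAANNGAAA lay in 1 window, at -10 of Tnfrsf1b, where it appears as its reverse complement, against 2.98% of all windows. The Cflar window holds none of the 3. A match is a run of letters, not a measured binding site.

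Between 26807281 and 29033297 reads per library were counted on genes. The targeted gene, Il4ra, had 3903, 3550 and 4686 counts in IL-4Rα+/+ replicates 1 to 3 and 781, 2268 and 940 counts in IL-4Rα-/- replicates 1 to 3. It was lower in all 3 knockout libraries, and IL-4Rα-/- replicate 2 kept the most reads among them. The log2 fold change of Il4ra was -1.67 (SE 0.41, unadjusted p = 0.00529, edgeR's quasi-likelihood test). Its Benjamini-Hochberg adjusted p-value was 0.618 in edgeR and 0.0111 in DESeq2, so only DESeq2 called it. The labels do not give the deleted exons, so where the remaining reads lie was not tested. Xist, transcribed from the inactive X chromosome of females, was at 553 CPM in IL-4Rα+/+ replicate 1 and 457 CPM in IL-4Rα-/- replicate 3 and at or below 3.72 CPM in the other 4 libraries. CPM is the count scaled to a common library size after TMM normalization. Markers of monocytes were abundant, with Csf1r at 2225 to 3092 CPM. Summed markers of other cells overlapped between the genotypes except for 3 lists that were higher in each IL-4Rα-/- library. These were red pulp macrophages at 3017 to 3892 CPM against 4141 to 6409.8 CPM (8 of 9 markers higher), erythroid cells at 83.6 to 144 CPM against 198 to 479 CPM (11 of 11 higher), and eosinophils, basophils and mast cells at 78.4 to 92.0 CPM against 135 to 213 CPM (9 of 10 higher). Of the markers in these 3 lists, a count of 0 was found only for Epx, in IL-4Rα+/+ replicate 2. Among the lists that overlapped, IL-4Rα-/- replicate 2 stood apart for neutrophil markers, at 793 CPM against 174 to 476 CPM in the other libraries, and for pancreatic acinar markers, at 375 CPM against 10.4 to 55.2 CPM. Of the tested markers, 7 of 9 for neutrophils, 5 of 5 for promyelocytes and 12 of 12 for acinar cells had a log2 fold change above 0. The same held for 8 of 9 markers of B cells and 3 of 3 of platelets, but for 6 of 11 of T and NK cells and 2 of 8 of dendritic cells. The part of all these cells in the values below was not tested.

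None of the 10 genes passed the test. With edgeR's quasi-likelihood test, Benjamini-Hochberg adjusted, at the study's threshold of 0.15, 0 of 10 were called, beside 0 of the 13849 genes tested (0%), and the smallest adjusted p-value of any gene was 0.618. Il4ra, the targeted gene, was among the genes that edgeR did not call, so a missing call does not show an unchanged level. DESeq2 also called 0 of the 10, beside 80 of 14003 genes (0.571%), Il4ra among them. An unadjusted p-value under 0.05 was reached by 0 of the 10 and by 1120 of the 13849 genes (8.09%) in edgeR. In DESeq2 it was reached by 0 of the 10 and by 4.7% of 25728 genes. That larger set was not filtered by count, so the shares of the tools are not directly comparable. The log2 fold change of IL-4Rα-/- over IL-4Rα+/+ was below 0 in 4 of the 10 and in 48.5% of all genes, with a median of 0.04 for the 10 and 0.01 for all. The median of the 10 lay on either side of 0 with 1 mouse left out, at -0.03 without IL-4Rα+/+ replicate 1, -0.02 without IL-4Rα+/+ replicate 3 or IL-4Rα-/- replicate 2, and -0.04 without IL-4Rα-/- replicate 3. The genotypes did not overlap in CPM for 1 of the 10, Cflar, against 15.5% of all genes. These p-values measure the spread between mice, 3 against 3. In bulk RNA, fewer cells of a type and less RNA per cell cannot be told apart.

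**Figure D1:**
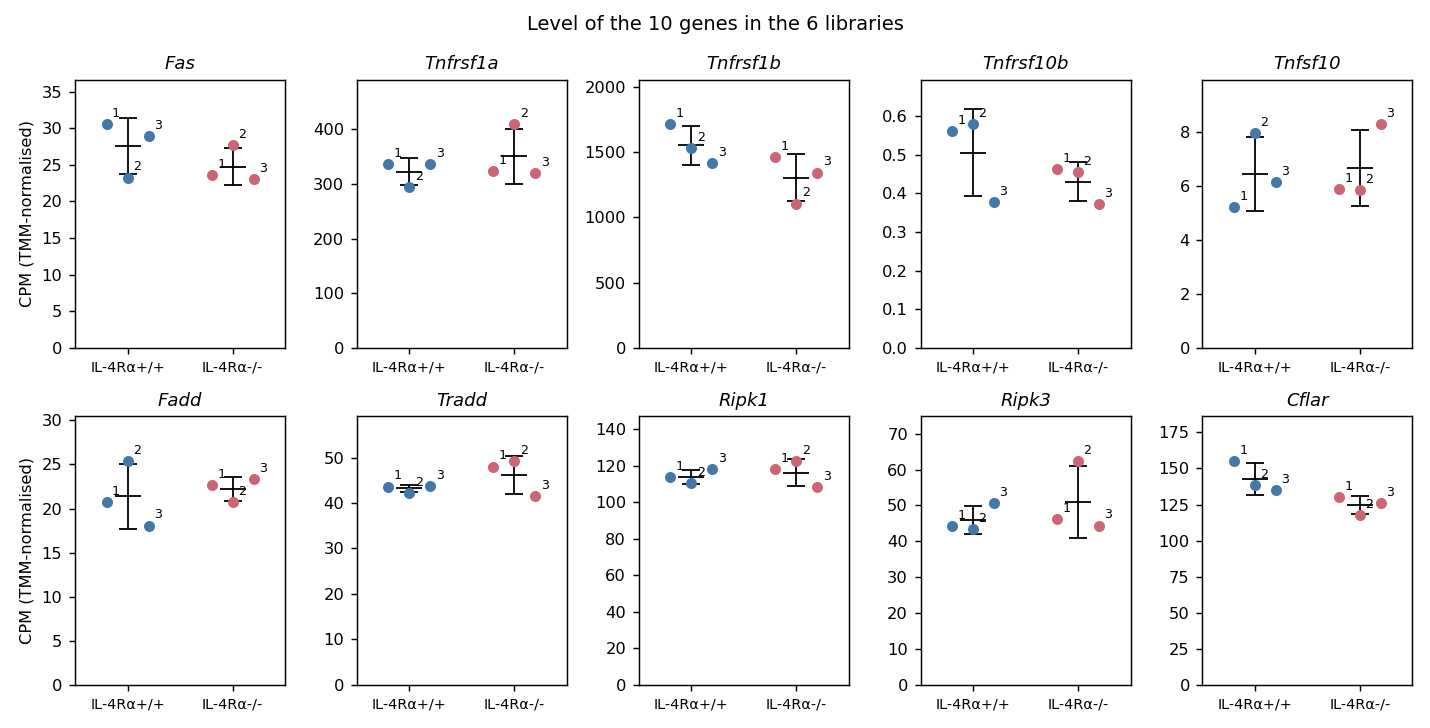
Level of each of the 10 genes in CPM (linear axes from 0), with 1 point per library, 3 per genotype, and a bar at the mean with its SD. The points of IL-4Rα+/+ and IL-4Rα-/- overlap for every gene except Cflar, where 118 to 130.4 CPM lie below 135 to 155 CPM.

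Of the receptors, Tnfrsf1b (ENSMUSG00000028599.10, minus strand, GRCm38 chr4:145213463-145246870), which encodes TNF receptor 2, was the most abundant. It had 1711, 1530.2 and 1416 CPM in IL-4Rα+/+ replicates 1, 2 and 3 and 1458, 1105 and 1342 CPM in IL-4Rα-/- replicates 1, 2 and 3. The highest knockout library, replicate 1, exceeded the lowest IL-4Rα+/+ library, so the genotypes overlapped. The means were 1552 ± 149 and 1302 ± 180.2 CPM (SD, n = 3 each). The log2 fold change was -0.25 (SE 0.13), with an unadjusted p-value of 0.0886 and an adjusted p-value of 0.632 (edgeR's quasi-likelihood test, Benjamini-Hochberg). With its lowest library, IL-4Rα-/- replicate 2, left out, the log2 fold change was -0.15. After the trend of counts with gene length was removed from each library the value was -0.30 (unadjusted p = 0.0409, edgeR's quasi-likelihood test), and the adjusted p-value over all alternatives lay between 0.412 and 0.901.

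Tnfrsf1a (ENSMUSG00000030341.17, plus strand, chr6:125349362-125362484) encodes TNF receptor 1, the TNF receptor with a death domain. Its level was 336, 294 and 336 CPM in IL-4Rα+/+ and 324, 408 and 319.7 CPM in IL-4Rα-/- libraries, in the order of the replicates. Only IL-4Rα-/- replicate 2 lay above the IL-4Rα+/+ range. This gave a log2 fold change of 0.12 (SE 0.12, adjusted p = 0.762), which was -0.0011 without that library. Hence the sign of the difference rested on 1 mouse.

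Fas (ENSMUSG00000024778.13, plus strand, chr19:34290666-34327772), the receptor of FASL, had 30.5, 23.2 and 28.9 CPM in IL-4Rα+/+ and 23.6, 27.7 and 23.0 CPM in IL-4Rα-/- libraries. The highest knockout library lay between IL-4Rα+/+ values, and the means were 27.6 ± 3.82 and 24.8 ± 2.55 CPM (SD, n = 3 each). Its log2 fold change of -0.15 (SE 0.13, adjusted p = 0.733) ranged from -0.26 without IL-4Rα+/+ replicate 2 to -0.08 without IL-4Rα+/+ replicate 1.

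Tnfrsf10b (ENSMUSG00000022074.6, plus strand, chr14:69767472-69784411), the death receptor for TRAIL in mice, was close to the limit of what these libraries can show. There were 16, 16 and 10 counts in IL-4Rα+/+ and 13, 13 and 11 counts in IL-4Rα-/- libraries. The 95% interval of the fold, 0.489 to 1.47, spans levels far below and well above those of IL-4Rα+/+ (log2 fold change -0.23, SE 0.33). The decoy TRAIL receptors Tnfrsf22 and Tnfrsf23, which lack a working death domain, had higher levels per length in every library, at 0.200 to 0.463 RPKM and 0.392 to 0.618 RPKM against 0.0682 to 0.106 RPKM for Tnfrsf10b, where RPKM is CPM per kilobase of annotated exons. All 3 are near the floor of the monocyte libraries. The neighbouring decoy genes resemble each other, and reads that map to more than 1 place were not counted on any gene, so their levels may be too low.

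Tnfsf10 (ENSMUSG00000039304.11, plus strand, chr3:27317028-27342427) encodes the ligand TRAIL. It had 149, 220 and 163 counts in IL-4Rα+/+ and 165, 167 and 245 counts in IL-4Rα-/- libraries, that is 6.44 ± 1.38 and 6.67 ± 1.39 CPM (SD, n = 3 each). The highest library of each genotype, IL-4Rα+/+ replicate 2 and IL-4Rα-/- replicate 3, stood apart from the other 2 of its group. The log2 fold change of 0.05 (SE 0.23, adjusted p = 0.951) was -0.08 without IL-4Rα+/+ replicate 1 and -0.13 without IL-4Rα-/- replicate 3.

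**Figure D2:**
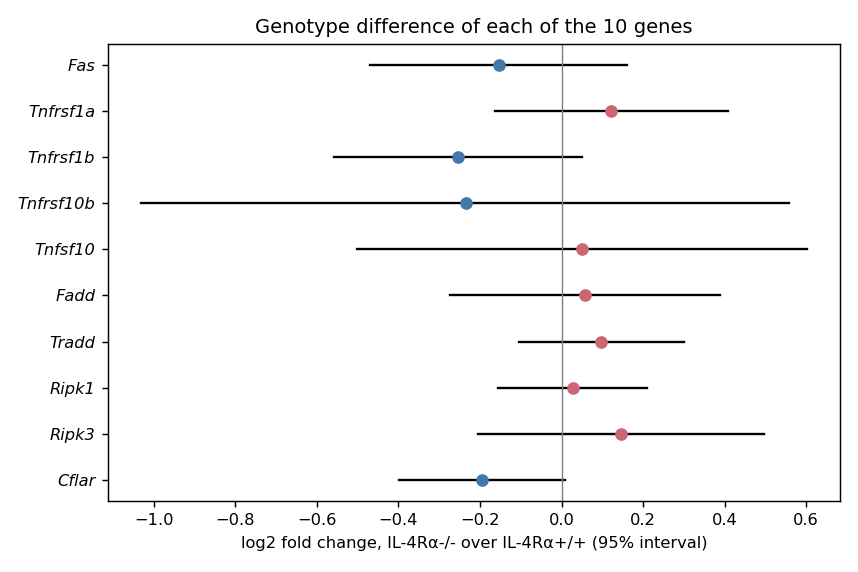
Log2 fold change of IL-4Rα-/- over IL-4Rα+/+ monocytes for the 10 genes from edgeR (points, blue below 0 and red above), with the 95% interval as a line. All 10 intervals include 0, the narrowest belongs to Ripk1 and the widest to Tnfrsf10b.

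All 4 adaptors and kinases had a log2 fold change above 0, and none passed. Ripk1 (ENSMUSG00000021408.15, plus strand, chr13:34002363-34037147), the kinase on which survival, apoptosis and necroptosis converge, had 114, 110.5 and 118 CPM in IL-4Rα+/+ and 118, 122 and 108 CPM in IL-4Rα-/- libraries. Its log2 fold change was 0.03 (SE 0.08, adjusted p = 0.916), with a 95% interval of 0.898 to 1.16 for the fold. Of its exons, 511 bp are shared with Gm17084 on the same strand and 241 bp lie under Serpinb6a on the other.

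Tradd (ENSMUSG00000031887.13, minus strand, chr8:105258286-105264609), the first adaptor on TNF receptor 1, had 43.6, 42.3 and 43.7 CPM in IL-4Rα+/+ libraries, a CV of 1.88%. In IL-4Rα-/- libraries it had 48.0, 49.2 and 41.4 CPM, with a CV of 9.06%. The first 2 of these lay above the IL-4Rα+/+ range and the last below it. Between the genotypes its log2 fold change was 0.10 (SE 0.08, adjusted p = 0.739), with a fold interval of 0.929 to 1.23, and it was 0.01 after removal of the length trend.

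Fadd (ENSMUSG00000031077.7, minus strand, chr7:144577318-144582463), which links receptors to caspase-8, had 20.7, 25.4 and 18.1 CPM in IL-4Rα+/+ and 22.7, 20.7 and 23.4 CPM in IL-4Rα-/- libraries. Here the IL-4Rα+/+ libraries held both the highest and the lowest value. Fadd differed by 0.06 on the log2 scale (SE 0.14, adjusted p = 0.902), and by -0.05 without IL-4Rα+/+ replicate 3. The antisense gene Faddos covers 239 bp of its exons.

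Ripk3 (ENSMUSG00000022221.14, minus strand, chr14:55784995-55788865), the kinase that commits a cell to necroptosis, had 44.1, 43.5 and 50.5 CPM in IL-4Rα+/+ and 46.1, 62.3 and 44.3 CPM in IL-4Rα-/- libraries. As for Tnfrsf1a, IL-4Rα-/- replicate 2 alone lay above the IL-4Rα+/+ range. Ripk3 differed by 0.15 on the log2 scale (SE 0.15, adjusted p = 0.766), and by -0.03 without that library.

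Cflar (ENSMUSG00000026031.15, plus strand, chr1:58711508-58758884), the inhibitor of caspase-8, was the single gene of the 10 without overlap. Its counts were 4417, 3823 and 3578 in IL-4Rα+/+ and 3655, 3365 and 3734 in IL-4Rα-/- libraries, and its CPM 155, 138 and 135 against 130.4, 118 and 126. Each knockout library lay below each IL-4Rα+/+ library once scaled to library size, by a narrow margin between IL-4Rα+/+ replicate 3 and IL-4Rα-/- replicate 1. Of all genes tested, 7.87% were likewise lower without overlap. On average it had 143 ± 10.8 and 125 ± 6.43 CPM (SD, n = 3 each), a log2 fold change of -0.19 (SE 0.09). The unadjusted p-value was 0.0587 and the adjusted p-value 0.618 (edgeR's quasi-likelihood test, Benjamini-Hochberg, 0.409 to 0.901 over the alternatives). Long genes were lower in the knockout libraries as a whole, with a median log2 fold change of 0.10 in the shortest and -0.09 in the longest of 4 about equal groups of genes by exon length, and Cflar, with 12669 bp of annotated exons, is among the longest. After removal of this trend its log2 fold change was -0.11 (unadjusted p = 0.261, edgeR's quasi-likelihood test). Fitted on all annotated exons, the trend between the genotypes was -0.09 at the length of Cflar and 0.07 at the 2591 bp of Tnfrsf1a. The median protein-coding transcript of Cflar has 2586.5 bp, and removal of the trend by that length was not tested.

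Compared per kilobase of annotated exons, the levels of the 10 genes spanned from TNF receptor 2 to the TRAIL receptor. Tnfrsf1b was at 374 RPKM (289 to 448 over the 6 libraries) and Tnfrsf1a at 129.8 RPKM (113 to 158), and their ranges overlapped neither each other nor any other gene of the 10. Tradd followed at 24.0 RPKM (22.2 to 26.4) and Ripk3 at 21.2 RPKM (19.0 to 27.2), whose order was within their spread. Below them Ripk1 at 13.8 RPKM (12.96 to 14.7) overlapped Fas at 12.7 RPKM (11.2 to 14.8), which overlapped Cflar at 10.6 RPKM (9.30 to 12.2). Fadd was lower at 5.59 RPKM (4.63 to 6.50), then Tnfsf10 at 1.25 RPKM (0.993 to 1.57) and Tnfrsf10b at 0.0858 RPKM (0.0682 to 0.106), none overlapping its neighbour. The place of Cflar depends on the length used. Its exons cover 12669 bp in all but 2586.5 bp in the median protein-coding transcript, and on that second scale it came next after Tnfrsf1a at 51.7 RPKM (45.5 to 60.0).

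**Figure D3:**
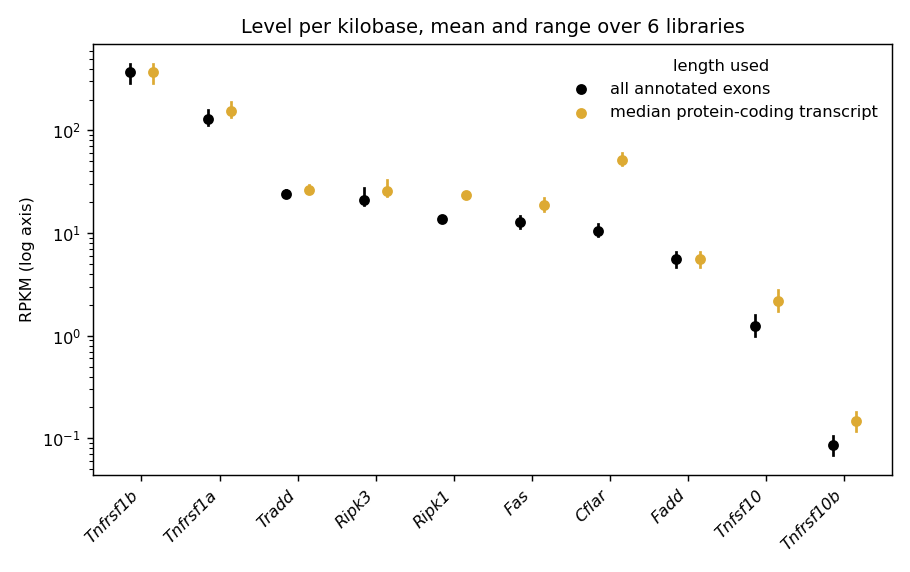
Mean level per kilobase (RPKM, log axis) of the 10 genes over 6 libraries, with the range of the libraries as a line, by 2 measures of gene length. Tnfrsf1b and Tnfrsf1a lead on both scales, Tnfrsf10b is last on both, and Cflar moves from 10.6 to 51.7 RPKM.

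Ratios of 3 pairs of partners were compared within each library, since both genes then share the library. Cflar to Casp8, the inhibitor to the protease it restrains, was taken per kilobase of all annotated exons. It was 0.322, 0.252 and 0.196 in IL-4Rα+/+ and 0.226, 0.155 and 0.211 in IL-4Rα-/- libraries. These exons cover 12669 bp for Cflar and 2893 bp for Casp8. Per median protein-coding transcript the mean levels were 51.7 and 73.9 RPKM, so the size of this ratio depends on the length used. Tnfrsf1b to Tnfrsf1a was 3.46, 3.53 and 2.86 against 3.06, 1.84 and 2.85. Both ratios overlapped between the genotypes, and both had their lowest value in IL-4Rα-/- replicate 2. The difference in log2 ratio was -0.37 for each (two-sided exact permutation test, p = 0.3 and 0.2, where 0.1 is the smallest possible, and 0.45 for both after Benjamini-Hochberg adjustment over the 3 ratios). Without IL-4Rα-/- replicate 2 these differences were -0.20 and -0.15. With the length trend removed, fitted on all annotated exons, that of Cflar to Casp8 was -0.22 (exact permutation test, p = 0.5). Ripk3 to Ripk1, the kinases of the necrosome, was 1.41, 1.43 and 1.56 against 1.42, 1.85 and 1.49, a log2 difference of 0.11 (exact permutation test, p = 0.6, and 0.6 adjusted), which was -0.0100 without the same library.

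The highest and lowest values of the 10 genes were spread over 5 of the 6 libraries. IL-4Rα-/- replicate 2 had the highest value of 4 genes (Tnfrsf1a, Tradd, Ripk1 and Ripk3) and the lowest of 2 (Tnfrsf1b and Cflar), while IL-4Rα+/+ replicate 1 had the highest value of 3 (Fas, Tnfrsf1b and Cflar) and the lowest of 1 (Tnfsf10). IL-4Rα-/- replicate 3 had the lowest value of 4 (Fas, Tnfrsf10b, Tradd and Ripk1) and the highest of 1 (Tnfsf10). Monocytes occur as classical, Ly6C-high cells with Ccr2 and F13a1 and as patrolling, Ly6C-low cells with Nr4a1 and Adgre4, and for Ccr2 and Nr4a1 the first 2 of these libraries lay at the ends while IL-4Rα-/- replicate 3 was in between. Ccr2 was at 380.1, 1044 and 1667 CPM in IL-4Rα+/+ and 825, 2007 and 978 CPM in IL-4Rα-/- libraries, lowest in IL-4Rα+/+ replicate 1 and highest in IL-4Rα-/- replicate 2. Nr4a1 ran the other way, at 1438, 1209 and 827 CPM against 1023, 538 and 1115 CPM. Genes of both subsets thus overlapped between the genotypes. Some summed markers of other cells had the same ends. Those of dendritic cells were highest in IL-4Rα+/+ replicate 1 (729 CPM) and lowest in IL-4Rα-/- replicate 2 (335 CPM), with 6 of 8 genes below 0 in log2 fold change. Those of neutrophils were lowest (174 CPM) and highest (793 CPM) in these libraries. Whether the covariate below stands for monocyte subsets alone was not tested. With the log2 ratio of Ccr2 to Nr4a1 as a covariate, an alternative chosen after seeing the data, the log2 fold change was nearer 0 for Tnfrsf1a (0.06), Ripk3 (0.03), Cflar (-0.14), Tnfrsf1b (-0.16, SE 0.06), Tnfrsf10b (-0.16), Tradd (0.08), Ripk1 (0.0012) and, slightly, Tnfsf10 (0.05). It was farther from 0 for Fadd (0.11) and Fas (-0.18). For Tnfrsf1b the unadjusted p-value was then 0.0473 by edgeR's quasi-likelihood test, and the smallest adjusted p-value of the 10 genes was 0.465.

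**Figure D4:**
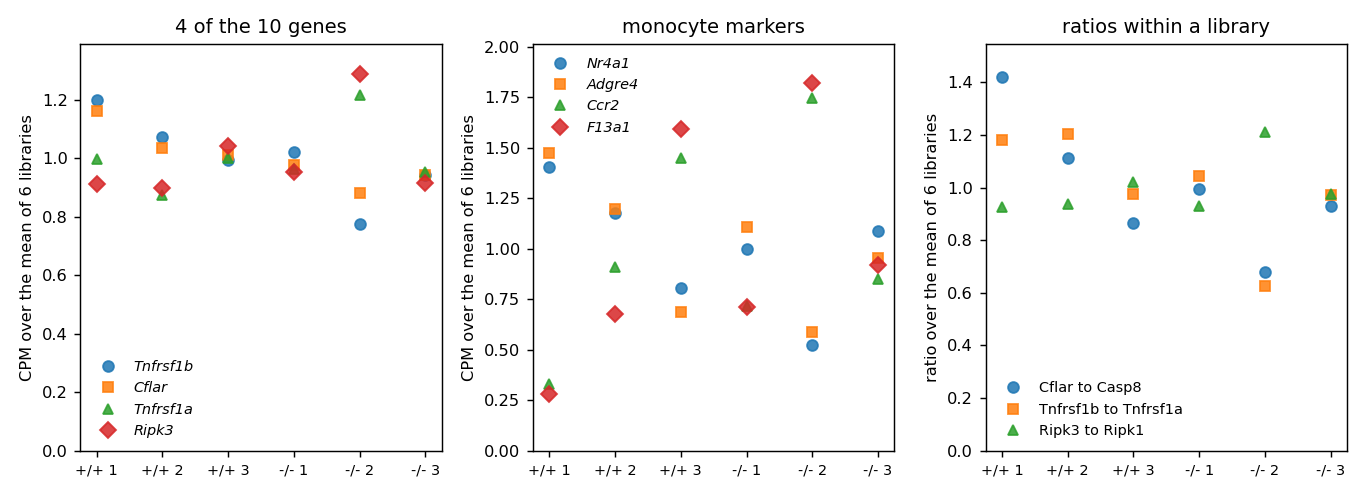
Values of each library (3 IL-4Rα+/+, 3 IL-4Rα-/-) divided by the mean of the 6 libraries (linear axes from 0), for 4 of the 10 genes, for 4 monocyte markers and for 3 ratios of partner genes. IL-4Rα-/- replicate 2 lies at an end in each panel, with high Ccr2, Ripk3 and Tnfrsf1a and low Nr4a1 and Tnfrsf1b.

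When each gene was standardised over the 6 libraries, the genes closest to the mean profile of the 10 were Pik3cb, a catalytic subunit of PI3 kinase, Clec4a1, a C-type lectin, and Sirt4, a mitochondrial sirtuin. Their mean absolute differences from that profile were 0.477, 0.479 and 0.486 in units of SD over 6 libraries. The profile averages genes that run in opposite directions, and it spans only part of the range of any of them.

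Other genes of the pathway were taken from lists by role, of which 83 of 93 could be tested. edgeR called 0 of the 83 and DESeq2 called 1, Tnfrsf14. The log2 fold change was below 0 in 55 and above 0 in 28, with a median of -0.10, against 48.5% below 0 and a median of 0.01 for all genes. With an unadjusted p-value under 0.05, 5 genes were lower and 0 higher, while 4.37% of all genes were lower and 3.72% higher at that level. The libraries of the genotypes did not overlap in 6 lower genes and 1 higher gene (Usp21, a deubiquitinase, named after its value was seen), against 7.87% and 7.63% of all genes. Over the settings that tested all 83, between 53 and 64 genes were below 0. The smaller lists are described by such counts only.

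Among the other ligands, 7 of the 11 tested were below 0 and 4 above. Tnf, which engages both TNF receptors, had 21.3, 21.2 and 21.5 CPM in IL-4Rα+/+ and 17.6, 12.5 and 25.2 CPM in IL-4Rα-/- libraries, so the knockout values spread to both sides (log2 fold change -0.21, SE 0.24, 0.0059 without IL-4Rα-/- replicate 2 and -0.50 without IL-4Rα-/- replicate 3). Ltb, the lymphotoxin beta chain, was the ligand with the most reads per length on average, at 29.6 RPKM. Its range of 12.7 to 45.4 RPKM over the libraries overlapped those of other ligands. Fasl, the ligand of FAS, had 4 to 12 counts per library and was not tested.

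Of the other receptors, 10 of the 19 tested were below 0 and 9 above. Tnfrsf21, also called death receptor 6, led them on average at 53.2 RPKM (40.7 to 64.1), a range that overlapped those of other receptors. Tnfrsf14 encodes HVEM, the receptor of the ligand LIGHT, and has no death domain. It had 31.9, 39.5 and 30.5 CPM in IL-4Rα+/+ and 20.1, 23.5 and 22.5 CPM in IL-4Rα-/- libraries. Each knockout library lay well below each IL-4Rα+/+ library. The log2 fold change was -0.62 (SE 0.12, unadjusted p = 0.00178), with an adjusted p-value of 0.618 from edgeR's quasi-likelihood test and 0.0424 from DESeq2, and 0.0424 to 0.901 over all alternatives. Of 15 alternatives all kept its unadjusted p-value under 0.05 and only DESeq2 called it.

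Of 6 genes for proteases that release soluble TNF receptors and their partners, 5 were below 0, and Adam10 led them at 38.2 RPKM per length of all exons, while Adam17 led at 52.0 RPKM against 40.9 RPKM per median protein-coding transcript. Adam17, the main sheddase of TNF and its receptors, had 225, 242 and 244 CPM against 218, 237 and 221 CPM (log2 fold change -0.07, SE 0.07), with overlap. Of the 10 effectors downstream of the adaptors, 4 were below 0 and 6 above, with Zbp1, a nucleic acid sensor that binds RIPK3, at 48.4 RPKM (40.1 to 55.1), within the spread of Casp8 at 48.1 RPKM (38.0 to 60.2).

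The effectors on which both death pathways end did not pass either. Casp8 had 110.0, 125 and 157 CPM in IL-4Rα+/+ and 132, 174 and 136 CPM in IL-4Rα-/- libraries (log2 fold change 0.17, SE 0.17), which was 0.04 without IL-4Rα-/- replicate 2, 0.06 without IL-4Rα+/+ replicate 1, 0.33 without IL-4Rα+/+ replicate 3 and 0.03 with the covariate for monocyte subsets. Casp8 was lowest in IL-4Rα+/+ replicate 1 and highest in IL-4Rα-/- replicate 2, the same ends as Ccr2. Mlkl, which executes necroptosis, had 15.8, 20.4 and 18.0 CPM against 17.2, 19.2 and 20.1 CPM (log2 fold change 0.07, SE 0.13), with the IL-4Rα+/+ libraries at both extremes. Its sign turned without IL-4Rα+/+ replicate 1 (-0.02) and with the length trend removed (-0.01).

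The list of ubiquitin ligases, deubiquitinases and kinases that surround TNF receptor 1 held 21 of 27 genes below 0, with a median log2 fold change of -0.14 against 0.01 for all genes. That number lay between 20 and 24 over the alternatives, and the median was -0.09 without IL-4Rα+/+ replicate 1, -0.22 without IL-4Rα+/+ replicate 3 and -0.09 with the covariate for monocyte subsets. Cyld, which removes linear and lysine-63 ubiquitin chains and so lets RIPK1 pass to the death complex, had 139, 145 and 134 CPM in IL-4Rα+/+ and 118, 116 and 125 CPM in IL-4Rα-/- libraries, with no overlap. Tab2, a ubiquitin-binding partner of the kinase TAK1, had 356, 351 and 298 CPM against 301, 253 and 285 CPM, with overlap. Chuk, which encodes IKKα, had 126, 119.6 and 101 CPM against 93.3, 99.6 and 98.4 CPM, apart by a narrow margin. Their log2 fold changes were -0.21 (SE 0.07), -0.26 (SE 0.10) and -0.25 (SE 0.10), with unadjusted p-values of 0.0203, 0.0435 and 0.0376 and an adjusted p-value of 0.618 for each in edgeR's quasi-likelihood test. After removal of the length trend Cyld was at -0.13 (unadjusted p = 0.103 by the same test). The gene of this list with the most reads per length was Mapkapk2, at 168 RPKM, with a log2 fold change of -0.05 (SE 0.08), which turned to 0.015 without IL-4Rα+/+ replicate 2.

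Of 10 NF-κB subunits and feedback genes, 8 were below 0, with a median of -0.18. Without IL-4Rα+/+ replicate 1 the median was -0.04 with 7 of 10 below 0, without IL-4Rα-/- replicate 2 it was -0.11, and without IL-4Rα+/+ replicate 3 it was -0.27. Rel, the subunit c-Rel, had 246, 204 and 150.2 CPM in IL-4Rα+/+ and 156, 110.4 and 149 CPM in IL-4Rα-/- libraries, a log2 fold change of -0.53 (SE 0.21) with an unadjusted p-value of 0.0393 and an adjusted p-value of 0.618 (edgeR's quasi-likelihood test). Its highest library was IL-4Rα+/+ replicate 1 and its lowest IL-4Rα-/- replicate 2, as for Tnfrsf1b. With the covariate for monocyte subsets it was at -0.33 (unadjusted p = 0.00359), against -0.36 without IL-4Rα+/+ replicate 1, and the median of the 10 genes was -0.07. Nfkbia, the inhibitor IκBα, led the list at 191 RPKM with a log2 fold change of -0.25 (SE 0.18), which was -0.03 without IL-4Rα+/+ replicate 1.

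**Figure D5:**
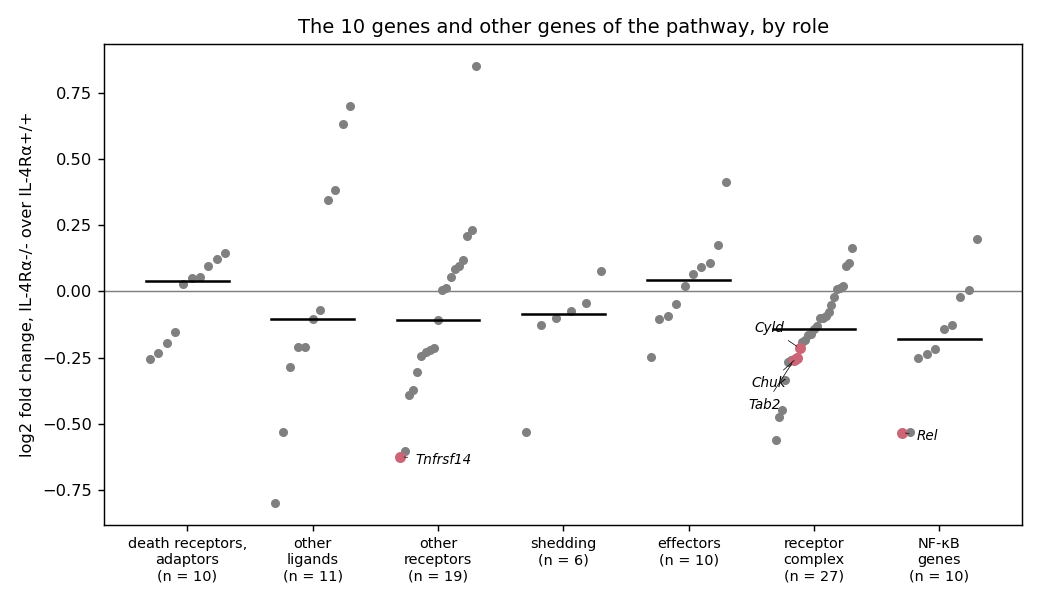
Log2 fold change of IL-4Rα-/- over IL-4Rα+/+ for each tested gene, by role, with n the number of genes tested and a line at each median. The 5 pathway genes with an unadjusted p-value under 0.05 are red and named, and all 5 lie below 0.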

How the data were processed

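Splenic monocytes of 6 mice, 3 with and 3 without IL-4Rα, were enriched by negative selection and made into directional poly(A) libraries, read as single ends of 75 bp. Per the labels and methods, the authors aligned reads to GRCm38 with STAR 2.6.1a and deposited raw counts per gene, with no normalization. Which strand column was kept is not given in the sources used here, so genes that overlap others, such as Fadd and Ripk1, are uncertain. STAR's summary lines, with 21.1% to 22.8% of the reads, were left out. Symbols and exon lengths came from Gencode M21, a release close to the authors', which held 55240 of 55421 identifiers.

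Genes were kept by filterByExpr (minimum count 10), scaled by TMM and tested by genotype over the 6 libraries with edgeR 4.0.16 (quasi-likelihood test, Benjamini-Hochberg over 13849 genes, threshold 0.15) in R 4.3.3. DESeq2 1.42.0 was an alternative, beside other scalings and filters, the replicate block, an Xist covariate, removal of the length trend (loess, span 0.5) and leaving out each mouse. Fold intervals are 95% intervals from edgeR. Ratios were compared by exact permutation over the 20 labelings. Both tools were also run on simulated counts of 13849 genes, where 200 genes carried a planted 4-fold difference. edgeR recovered 198 of these and called 43 genes without a planted difference. DESeq2 recovered 199 and called 121 such genes, so its calls held more false ones there. The planted fold was larger than that of any of the 10 genes. Detection of differences as small as theirs was not tested. At this depth genes with few counts, such as Tnfrsf10b, are limited by counting error.

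The 10 genes and the pathway lists were chosen with earlier results of these data known. Named are the 10 genes, Il4ra, Casp8, Mlkl, pathway genes with an unadjusted p-value under 0.05, the gene of each list with the highest RPKM and the 3 genes nearest the mean profile. Tnf, Fasl, Adam17, Tnfrsf22, Tnfrsf23, Xist and the cell type markers were added after their values were seen.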

Additional observations from a re-analysis of the deposited data

How the results depend on the processing

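Of 221 recomputed values, 211 were classed as the same. Log2 fold changes were classed by direction and side of the threshold, ratios by direction only, and counts of called genes by their size. The stricter threshold of 0.05 could not change a count of 0. With DESeq2, 80 genes were called in place of 0, among them 1 pathway gene in place of 0, and the cause was not tested. edgeR called 0 genes in every alternative, and 0 of the 10 genes were called in any. With 1 mouse left out, the sign turned for 5 genes, whose log2 fold changes lay between -0.0011 (without IL-4Rα-/- replicate 2) and 0.19 for Tnfrsf1a, -0.13 (without IL-4Rα-/- replicate 3) and 0.23 for Tnfsf10, which was -0.080 without IL-4Rα+/+ replicate 1, -0.050 (without IL-4Rα+/+ replicate 3) and 0.20 for Fadd, and, both lowest without IL-4Rα-/- replicate 2, -0.011 and 0.078 for Ripk1 and -0.025 and 0.24 for Ripk3. With the length trend removed, the log2 difference of the Ripk3 to Ripk1 ratio was -0.016. When 1 mouse was left out, the difference lay between -0.55 and -0.19 for Cflar to Casp8, -0.51 and -0.15 for Tnfrsf1b to Tnfrsf1a, and -0.0100 and 0.18 for Ripk3 to Ripk1. Over the alternatives that tested all 10 genes, the count below 0 lay between 4 and 7, highest without IL-4Rα-/- replicate 2, and with a minimum count of 50, where Tnfrsf10b was not tested, it was 3 of 9.

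A block for the replicate number left 0 genes called, a smallest adjusted p-value of 0.812, and 765 genes under an unadjusted 0.05, against 1120 unblocked. The deviations of same-numbered libraries correlated at 0.185, -0.271 and -0.296, so the numbers did not pair them. The log2 differences of the ratios under the block equal those without it, at -0.37, -0.37 and 0.11, with exact sign flip p-values of 0.5, 0.25 and 0.75, where 0.25 is the smallest possible. Depth limits Tnfrsf10b and Fasl, which held 10 to 16 and 4 to 12 counts per library.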
